A study of Mus musculus with 138 samples.

Results

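The genes followed here were the 9 members of the fibroblast growth factor (FGF) system studied in the calvarial sutures: the receptors Fgfr1, Fgfr2 and Fgfr3, the receptor-like Fgfrl1, and the ligands Fgf18, Fgf9, Fgf2, Fgf7 and Fgf10. They were chosen by name out of 55487 genes in the count files. All 9 passed the filter on low counts that left 19768 genes for testing. The samples came from wild-type C57BL/6J mouse embryos, with no transgene or treatment in any group. Bulk RNA sequencing covered the suture mesenchyme (SM), the tissue between the bones, and the osteogenic fronts (OFs), the growing bone edges, of 4 sutures (sagittal, lambdoid, frontal and coronal) at embryonic days E16.5 and E18.5. Each region was cut out by laser capture in 5 pieces per group, each with a litter label of its own, which gave 20 groups and 100 first libraries. The fronts were those of the frontal (FR) and parietal (PA) bones in the coronal suture, the FR front in the frontal suture, the interparietal (IP) and PA fronts in the lambdoid suture, and the PA front in the sagittal suture. Single-cell RNA sequencing covered strips of coronal suture at both ages, with 2 libraries per age. The captured pieces were small and their RNA was amplified before sequencing. The single-cell strips were pooled over embryos and freed of surrounding membranes only as far as possible.

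FGF ligands are secreted proteins that bind receptor tyrosine kinases together with heparan sulfate, and a bound receptor signals mainly through the adaptor Frs2 to the ERK cascade. In the skull vault, activating mutations of FGFR1, FGFR2 and FGFR3 cause craniosynostosis in humans, the early fusion of sutures. Fgf18, Fgf9 and Fgf2 can bind the receptor forms typical of mesenchyme, while Fgf7 and Fgf10 act mainly through the form of Fgfr2 typical of epithelia. Fgfrl1 binds FGFs and lacks the intracellular kinase domain.

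First libraries held 7305627 to 34518477 counted read pairs, with a median of 14244957. The coronal libraries were the deepest, at 20133332 to 34518477, so suture and depth cannot be told apart in a comparison of levels between sutures. The 15 coronal E16.5 libraries were less alike within their groups than most others, though the ranges overlapped. The correlation of expression profiles within their groups was 0.805 to 0.855, against 0.847 to 0.967 for the other 85 libraries. Second libraries existed for 18 of the coronal pieces and differed in level from the first, so the differences called in the coronal suture and described here are given with those of the second libraries (3 per group). The labels of region fitted the markers of bone: averaged over the 12 comparisons of SM with OF, Ibsp, a matrix protein of osteoblasts, fell by 6.38 on the log2 scale and Sp7, an osteoblast transcription factor, fell by 3.07, both with called differences. The summed level of 12 osteoblast markers ran from 5164 to 11228 CPM, counts scaled to library size, in coronal SM at E16.5 and from 16474 upward in the coronal fronts of both ages. SM and front overlapped in the frontal suture, at 18876 to 21505 in SM and 19638 to 30567 in the front at E16.5 and at 24123 to 31194 and 24471 to 39389 at E18.5. They also overlapped in the sagittal suture at E16.5, at 28780 to 31946 in SM and 25267 to 36082 in the front. The SM median was the higher there and in the frontal suture at E18.5 (27559 in SM, 26780 in the front). The summed level of osteoblast markers in SM relative to the fronts thus differed between sutures, and its part in the FGF differences was not tested. In the mean of the 12 comparisons the markers fell unequally in SM, by between 0.716 (Col1a1) and 7.47 (Dmp1). An overlap of the sum is therefore not an overlap of each marker. In such bulk pieces, fewer cells of a type and less RNA per cell cannot be told apart.

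The members lie on 8 chromosomes of the mm10 build, in GENCODE coordinates: Fgfr1 at chr8:25513654-25575718, Fgfr2 at chr7:130162451-133123350, Fgfr3 at chr5:33721674-33737068, Fgfrl1 at chr5:108692382-108706924, Fgf18 at chr11:33117430-33147400, Fgf9 at chr14:58070547-58112720, Fgf2 at chr3:37348346-37410108, Fgf7 at chr2:126034658-126091185 and Fgf10 at chr13:118669791-118792115. Reads were counted over exons without regard to strand. An antisense gene overlapped 13.9% of the exon length of Fgfr3 and the antisense gene Nudt6 overlapped 9.44% of that of Fgf2, so reads of these pairs cannot be told apart. For Fgfr1, Fgfr2 and Fgf10 the overlap with other genes was at most 3.04%, and Fgfrl1, Fgf18, Fgf9 and Fgf7 had none.

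The stretches upstream of the start sites are shown for Fgfr2 and Fgfrl1, whose SM to OF difference set the coronal suture apart under each alternative run. Those of Fgf9, which had the largest single difference, and of Fgf18 are shown too. Fgf18 was the ligand with the highest group mean in SM when counts were scaled to exon length. Each is 250 bases from RefSeq (GRCm38.p6, the assembly behind mm10), written 5′ to 3′ on the gene's strand, with capitals marking the GC box, GGGCGG or its reverse CCGCCC.
Fgfr2 (chr7:130266809-130267058, − strand): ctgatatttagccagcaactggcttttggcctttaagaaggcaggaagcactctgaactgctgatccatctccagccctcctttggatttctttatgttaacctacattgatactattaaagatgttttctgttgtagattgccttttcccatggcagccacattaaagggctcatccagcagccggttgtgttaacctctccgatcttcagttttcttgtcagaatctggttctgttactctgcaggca
Fgfrl1 (chr5:108693979-108694228, + strand): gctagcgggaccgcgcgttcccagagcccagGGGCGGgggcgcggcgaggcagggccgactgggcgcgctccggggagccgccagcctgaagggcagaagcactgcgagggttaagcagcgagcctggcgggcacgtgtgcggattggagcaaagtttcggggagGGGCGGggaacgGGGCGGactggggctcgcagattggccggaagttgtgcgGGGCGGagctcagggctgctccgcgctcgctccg
Fgf18 (chr11:33147401-33147650, − strand): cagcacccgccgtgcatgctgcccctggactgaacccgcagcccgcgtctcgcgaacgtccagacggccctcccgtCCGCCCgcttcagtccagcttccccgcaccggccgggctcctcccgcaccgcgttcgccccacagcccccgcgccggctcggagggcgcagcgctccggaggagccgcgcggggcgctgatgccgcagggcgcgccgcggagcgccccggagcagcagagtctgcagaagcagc
Fgf9 (chr14:58072436-58072685, + strand): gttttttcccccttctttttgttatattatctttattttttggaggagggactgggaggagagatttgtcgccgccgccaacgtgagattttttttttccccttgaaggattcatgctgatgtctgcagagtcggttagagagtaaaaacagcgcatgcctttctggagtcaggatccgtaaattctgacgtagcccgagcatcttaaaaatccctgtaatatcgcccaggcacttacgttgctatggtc
The window of Fgfrl1 held 4 GC boxes, that of Fgf18 held 1, and those of Fgfr2 and Fgf9 held 0. Their G and C content was 73.6% for Fgfrl1, 77.2% for Fgf18, 44% for Fgfr2 and 44.8% for Fgf9. Over 32851 RefSeq promoter windows of the same length, 32.7% held a GC box on either strand. The core motif of Runx factors, TGTGGT, stood in 14% of all windows and in no window of a member. Windows were found for 8 of the 9 members, all but Fgfr1. Each window shown lies before a single RefSeq start site. Those of Fgfr2, Fgfrl1 and Fgf9 lie inside the gene coordinates given above, so other annotated starts of these genes are not covered.

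In the mean over all sutures and ages, Fgfr1, Fgfr2 and Fgfr3 were lower in SM than in the bone fronts, all 5 ligands were higher in SM, and Fgfrl1 was not called, with an adjusted p just above the threshold. Levels are given as RPKM, counts scaled to exon length and to library size. An order of genes by RPKM depends on the exon length used. A difference was called at an adjusted p under 0.05 in edgeR's quasi-likelihood test, with adjustment over all tested genes. Of 108 tests of a member in an SM against OF comparison, 41 called SM higher, 22 called SM lower and 45 made no call. Over all tested genes and the same 12 comparisons, 8.24% of tests called SM higher and 10.8% called SM lower. Either call was made for 3.46% to 35.6% of genes, depending on the comparison: in the coronal suture for 30.3% (FR) and 35.6% (PA) at the earlier age and 3.46% (FR) and 18% (PA) at the later one, and in the frontal suture for 7.91% and then 11.1%. In the lambdoid suture it was made for 11.2% (IP) and 23.1% (PA) at E16.5 and 19.6% (IP) and 24.6% (PA) at E18.5, and in the sagittal suture for 17.7% and then 25.3%. Every SM library lay above every front library in 7.86% of tests over all genes and below in 9.7%. The FR and PA comparisons of the coronal suture, and the IP and PA comparisons of the lambdoid suture, share their SM libraries. The mean of the 12 differences was called for 8 of the 9 members, 5 higher and 3 lower in SM, against 56.5% of all genes (28.6% higher and 27.9% lower). Scaling libraries by their totals in place of the TMM method of edgeR raised every SM to OF difference by 0.0058 to 0.29 on the log2 scale, so a small difference depends on the scaling.

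**Figure D1:**
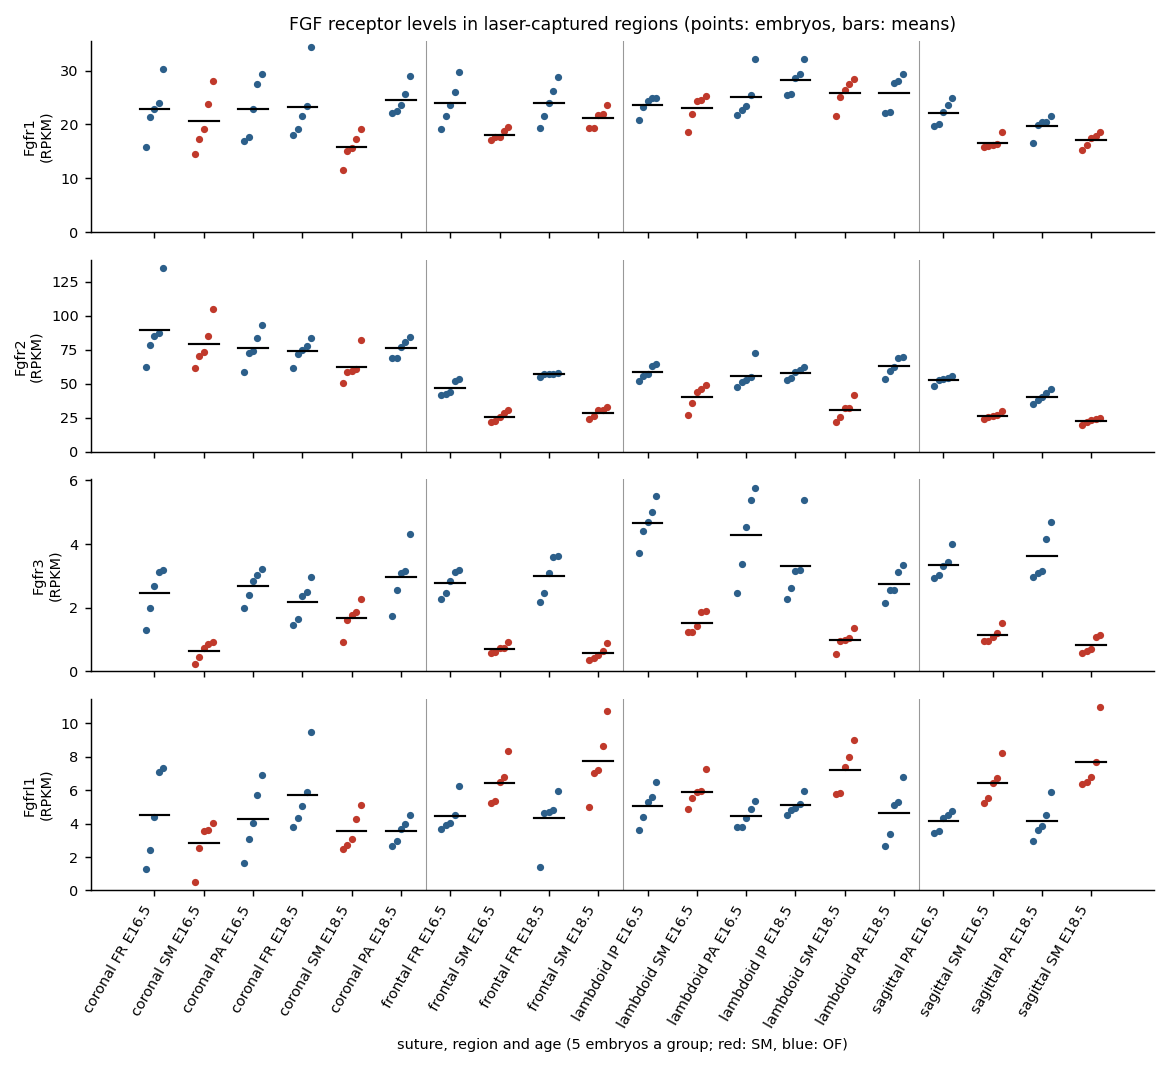
RPKM of Fgfr1, Fgfr2, Fgfr3 and Fgfrl1 (vertical axes, linear) in each of the 100 first libraries, arranged by suture, region and age, with SM in red, OF in blue and a bar at each group mean. Fgfr2 lay lower in SM than in the fronts of the frontal, lambdoid and sagittal sutures and overlapped the fronts in the coronal suture, and Fgfr3 in SM lay below the fronts in 10 of the 12 comparisons without overlap.

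Fgfr2, the receptor most often mutated in syndromic craniosynostosis, had group means from 22.9 to 89.9 RPKM and the highest mean of the members in every group but frontal SM at E18.5. Frontal FR libraries at E18.5 held 54.8, 57.1, 57.5, 57.6 and 57.9 RPKM, and frontal SM libraries 23.8, 26.4, 30.8, 30.8 and 32.6. The difference was −0.98 on the log2 scale (SE 0.14, adjusted p = 4.59e-08, n = 5 and 5), and no SM library reached the front. Sagittal PA libraries at E16.5 held 48.5, 52.6, 53.9, 54.4 and 55.7 RPKM, and sagittal SM 23.8, 25.9, 26.4, 26.9 and 29.9. Here too SM and front were fully apart. All 8 comparisons of the frontal, lambdoid and sagittal sutures called Fgfr2 lower in SM, by 0.47 (lambdoid PA, E16.5) to 1.04 (lambdoid PA, E18.5), and 7 of them had no overlap.

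In the coronal suture Fgfr2 was called in none of the comparisons of first libraries. Coronal FR at E16.5 held 62.2, 78.9, 85.4, 87.8 and 135 RPKM, and coronal SM 61.7, 70.8, 73.4, 85.4 and 105. The PA front held 58.7, 72.5, 74.5, 83.4 and 93.6, so that SM overlapped both fronts at this age. At E18.5 coronal SM held 50.9, 58.9, 59.5, 61 and 82.4, and its FR front 61.6, 71.8, 74.8, 77.7 and 83.5. The PA front at this age ran from 69.1 to 84.6. The highest SM library lay within the range of both fronts, and all other SM libraries lay below every front library. The 4 coronal differences were −0.18, −0.24, 0.05 and −0.28, with adjusted p from 0.154 to 0.808 (edgeR).

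Fgfr3, which restrains growth in cartilage, was a low-level receptor with the widest gap between bone and mesenchyme among the receptors. Group means ran from 0.558 RPKM in frontal SM at E18.5 to 4.67 in lambdoid IP at E16.5. Frontal FR at E18.5 held 2.18, 2.45, 3.09, 3.61 and 3.61 RPKM against 0.365, 0.407, 0.496, 0.627 and 0.892 in frontal SM. The difference of −2.41 (SE 0.29, adjusted p = 6.52e-11, edgeR, n = 5 and 5) was the largest of the 12, with the groups apart. SM was called lower in 11 of the 12 comparisons and did not overlap the front in 10. The exception was the coronal FR front at E18.5, where SM held 0.919, 1.6, 1.77, 1.86 and 2.27 RPKM and the front 1.44, 1.63, 2.35, 2.48 and 2.95, for a difference of −0.37 (adjusted p = 0.604, edgeR). The coronal PA difference at E18.5, −0.82 (adjusted p = 0.0166), was lost without replicate 1, 3 or 4 and was −0.68 (adjusted p = 0.0722) from second libraries. At E16.5 the coronal differences were −1.95 for FR and −2.09 for PA, and second libraries also called both, at −0.99 (adjusted p = 0.0120) and −1.28 (adjusted p = 0.000511).

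Fgfr1, a receptor expressed widely in mesenchyme, had the narrowest range of group means among the members relative to its level, 15.8 to 28.2 RPKM. It was called lower in SM in 3 comparisons. Coronal PA at E18.5 held 22.1, 22.4, 23.6, 25.7 and 29.0 RPKM and coronal SM 11.6, 15.1, 15.7, 17.3 and 19.1, a difference of −0.64 (adjusted p = 0.00041, edgeR) with no overlap, and −0.49 (adjusted p = 0.00801) from second libraries. The coronal FR difference at E18.5 was −0.57 (adjusted p = 0.00797), and it was −0.28 and not called from the second libraries. The sagittal PA difference at E16.5 was −0.41 (adjusted p = 0.0325) and was lost without replicate 1, 4 or 5. In the frontal suture at E16.5 the difference of −0.41 was not called (adjusted p = 0.0620) and, with the replicate number as a block, was −0.39 with an adjusted p of 0.0186. The mean of the 12 differences, −0.25 (SE 0.048, adjusted p = 3.79e-06), became −0.12 (adjusted p = 0.0651) when libraries were scaled by their totals, under which Fgfr1 also changed sign in comparisons without a call.

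Fgfrl1 was the receptor-like member that did not lie with the other receptors. Its group means were 2.86 to 7.74 RPKM, lowest in coronal SM at E16.5 and highest in frontal SM at E18.5. Sagittal PA at E18.5 held 2.98, 3.64, 3.87, 4.53 and 5.88 RPKM and sagittal SM 6.39, 6.49, 6.79, 7.72 and 11.0. This difference of 0.87 was the only call of Fgfrl1 (adjusted p = 0.0282, edgeR), with no overlap, and was lost without replicate 3 or 4. In the sagittal suture at E16.5 SM and front did not overlap either, without a call (0.64, adjusted p = 0.165). The 8 comparisons outside the coronal suture had differences of 0.22 to 0.87, and the 4 coronal ones of −0.69 to −0.01. The mean of the 12 was 0.23 (SE 0.10, adjusted p = 0.0536). It was called higher in SM under 8 of the 17 alternatives, among them scaling by totals (0.35, adjusted p = 0.00424), second libraries (0.31, adjusted p = 0.000629) and leaving out replicate 1 (0.30, adjusted p = 0.0124) or the coronal E16.5 libraries (0.40, adjusted p = 1.51e-05).

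**Figure D2:**
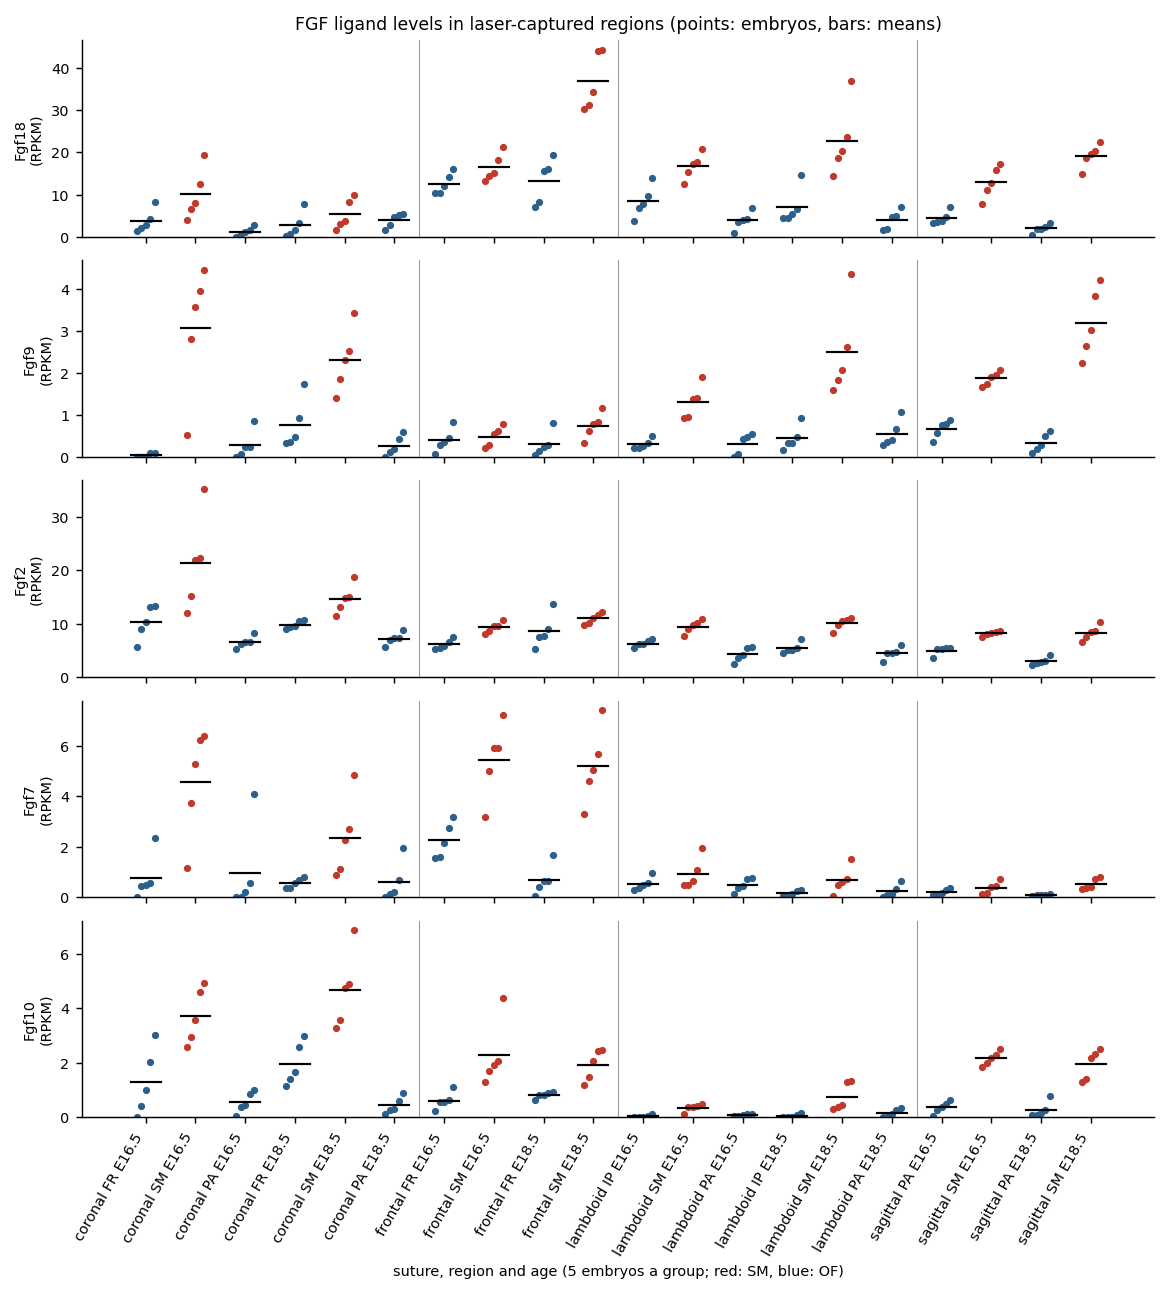
RPKM of Fgf18, Fgf9, Fgf2, Fgf7 and Fgf10 (vertical axes, linear) in each of the 100 first libraries, arranged by suture, region and age, with SM in red, OF in blue and a bar at each group mean. Fgf18 and Fgf2 reached the highest levels of the ligands, and Fgf10 lay at or below 0.343 RPKM in all lambdoid front libraries.

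Fgf18, a ligand needed for timely growth of the skull bones, had the highest RPKM of the ligands in SM outside the coronal suture. Its highest group mean was 36.7 RPKM, in frontal SM at E18.5. Without scaling to exon length Fgf2 stood higher in that group, at a mean log2 CPM of 6.22 against 5.43 for Fgf18. Sagittal SM at E18.5 held 14.8, 18.7, 19.6, 20.3 and 22.5 RPKM, and the PA front 0.565, 1.98, 1.99, 2.39 and 3.41. The difference was 3.21 on the log2 scale (SE 0.54, adjusted p = 7.22e-07, edgeR, n = 5 and 5), with every SM library above every front library. Fgf18 was called higher in SM in 8 of the 12 comparisons and had groups without overlap in 6. In the lambdoid suture at E18.5, SM held 14.4, 18.7, 20.2, 23.7 and 36.8 RPKM and the PA front 1.64, 1.95, 4.83, 5.04 and 7.10 (difference 2.46, adjusted p = 9.68e-05, edgeR). SM of this suture also stood above its IP front, by 1.68 (adjusted p = 0.00873).

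The frontal FR front had the highest group means of Fgf18 among the fronts. At E16.5 the frontal FR libraries held 10.3, 10.4, 11.9, 14.2 and 16 RPKM against 13.3, 14.3, 15, 18.1 and 21.3 in SM, and the difference of 0.38 was not called (adjusted p = 0.842, edgeR). In the coronal suture at E16.5, SM held 4.04, 6.63, 7.98, 12.4 and 19.3 RPKM and the PA front 0, 0.776, 1.17, 1.69 and 2.74. That difference, 2.98 (adjusted p = 4.39e-06), was 0.85 (adjusted p = 0.260) when the coronal groups came from second libraries. Those libraries held 2.58, 5.17 and 6.49 RPKM in SM and 0.808, 2.69 and 4.21 in PA. At E18.5 neither coronal difference was called in the first libraries (0.95 and 0.44), and both were called in the second, at 1.70 (FR, adjusted p = 0.0295) and 1.57 (PA, adjusted p = 0.0188).

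Fgf9, a ligand of Fgfr3 and of the mesenchymal receptor forms, was low in all fronts and showed the largest single difference of the members, in first libraries. Coronal SM at E16.5 held 0.527, 2.82, 3.58, 3.95 and 4.46 RPKM, and the FR front 0, 0.0108, 0.0124, 0.0881 and 0.101, which were counts of 0 to 8. The fitted difference was 6.12 (adjusted p = 4.30e-09, edgeR), with no overlap. Second libraries held 0.907, 0.926 and 1.59 RPKM in SM and 0.0180, 0.0656 and 0.310 in FR, and gave a smaller difference of 3.04 (adjusted p = 0.00221), again without overlap. The PA difference at E16.5, 3.42, was 1.13 and not called from second libraries (adjusted p = 0.247), and that at E18.5, 3.10, was 3.22 (adjusted p = 0.000659). Sagittal SM at E18.5 held 2.25, 2.64, 3.03, 3.83 and 4.21 RPKM and its PA front 0.0866, 0.187, 0.277, 0.512 and 0.614, a difference of 3.25 (adjusted p = 0.000105). SM was called higher in 8 of the 12 comparisons, and the groups were without overlap in 8, of which the sagittal one at E16.5 was not called (1.47, adjusted p = 0.108). In the frontal suture Fgf9 was low on both sides, with SM libraries between 0.205 and 1.16 RPKM, and its differences of 0.28 and 1.26 were not called (adjusted p = 0.941 and 0.272).

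Fgf2, a ligand stored in the extracellular matrix, was called higher in SM in 10 of the 12 comparisons, and the groups were without overlap in 10. Coronal SM at E16.5 held 12.1, 15.3, 22.0, 22.4 and 35.2 RPKM, its FR front 5.66, 8.98, 10.3, 13.1 and 13.4, and its PA front 5.34, 6.17, 6.51, 6.55 and 8.29. The PA difference was 1.70 (SE 0.20, adjusted p = 8.90e-12, edgeR, n = 5 and 5) and was 1.13 (adjusted p = 0.000442) from second libraries. Sagittal SM at E18.5 held 6.63, 7.59, 8.52, 8.60 and 10.3 RPKM and the PA front 2.32, 2.70, 2.92, 3.10 and 4.08, a difference of 1.46 (adjusted p = 1.60e-09). The differences without a call were the FR fronts at E18.5 in the coronal suture (0.57, adjusted p = 0.0747, though without overlap) and in the frontal suture (0.35, adjusted p = 0.280).

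Fgf7, a ligand that mesenchyme classically provides to epithelium, was highest in frontal SM and in coronal SM. Frontal SM at E18.5 held 3.32, 4.62, 5.03, 5.69 and 7.42 RPKM and the FR front 0.0481, 0.423, 0.627, 0.631 and 1.67, a difference of 2.92 (adjusted p = 0.00763, edgeR) with no overlap. In the sagittal suture at E18.5, SM held 0.340 to 0.814 RPKM and the front 0.0573 to 0.145, a difference of 2.43 (adjusted p = 0.0285) that was lost without replicate 3, 4 or 5. Fgf7 was called in 4 comparisons and was without overlap in 3, of which coronal FR at E18.5 was not called (2.07, adjusted p = 0.139). Its coronal calls at E16.5, 2.56 for FR (adjusted p = 0.00851) and 2.23 for PA (adjusted p = 0.0177), became 1.41 (adjusted p = 0.241) and 0.41 (adjusted p = 0.769) from the second libraries. The coronal PA difference at E18.5, 1.95 (adjusted p = 0.0650), was 2.61 (adjusted p = 0.0133) with the replicate number as a block.

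Fgf10, close to Fgf7 in sequence and receptor use, was highest in coronal SM and lowest in the lambdoid fronts. Coronal SM at E18.5 held 3.30, 3.59, 4.74, 4.91 and 6.87 RPKM, the PA front 0.116, 0.287, 0.318, 0.594 and 0.893, and the FR front 1.14, 1.42, 1.66, 2.58 and 3.00. Every SM library lay above every library of both fronts. The PA difference of 3.39 was called (adjusted p = 2.46e-05, edgeR), with 2.14 (adjusted p = 0.0235) from second libraries, and the FR difference of 1.25 was not (adjusted p = 0.310). In the lambdoid suture at E18.5, SM held 0.293, 0.378, 0.473, 1.3 and 1.33 RPKM and the IP front 0 to 0.160 (difference 3.84, adjusted p = 6.38e-05). Fgf10 was called higher in SM in 10 of the 12 comparisons and was without overlap in 8. The frontal call at E16.5, 1.87 (adjusted p = 0.0369), had an adjusted p of 0.0726 with the replicate number as a block, and the coronal FR call at that age, 1.52 (adjusted p = 0.0428), was 0.87 (adjusted p = 0.463) from second libraries.

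Averaged over the 12 comparisons, the ligands stood higher in SM by 2.44 for Fgf9 (SE 0.21), 2.38 for Fgf10 (SE 0.21), 1.79 for Fgf7 (SE 0.25), 1.63 for Fgf18 (SE 0.16) and 0.94 for Fgf2 (SE 0.062), with adjusted p from 4.02e-25 to 2.02e-09. The mean differences of Fgfr3 and Fgfr2 were −1.64 (SE 0.094, adjusted p = 4.07e-29) and −0.61 (SE 0.047, adjusted p = 9.73e-21). The calls of these 7 genes held under each of the 17 alternatives run. Other lists of cell markers moved with the same comparison: all 6 markers of ectocranial mesenchyme, the outer layer, were called higher in SM, among them Ogn by 1.35 and Thbs2 by 1.17, and all 11 proliferation markers tested were called lower. All 7 pericyte and smooth muscle markers were called higher in SM, with Myh11 at 1.18 and Abcc9 at 1.02, as were 9 of 10 macrophage markers, with Lyz2 at 1.01, and 5 of 9 chondrocyte markers, while another 2 of the 9 were called lower. In each of the other classes listed, the osteoblast markers aside, at most 3 markers were called higher and at most 1 lower. The part of these cell types in the FGF differences was not tested.

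**Figure D3:**
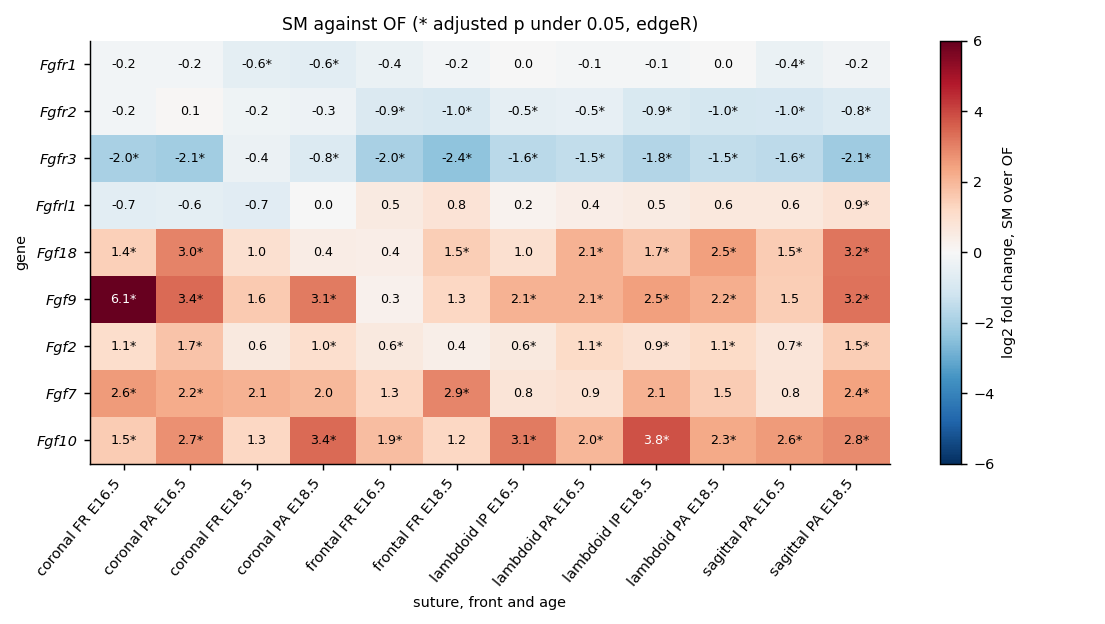
Fitted log2 fold change of SM over OF for each member (rows) in each of the 12 comparisons (columns), printed in each cell and shaded from blue (lower in SM) to red (higher in SM), with a star at an adjusted p under 0.05. Fgfr3 is starred in 11 columns, and Fgfr2 is starred in the 8 columns outside the coronal suture and in none of the 4 coronal ones.

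The coronal suture was set against the others by the mean of its 4 differences less the mean of the other 8, which compares SM to OF differences within sutures. The contrast was called for 4 of the 9 members, 3 higher and 1 lower, against 20.8% of all genes. For Fgfr2 it was 0.66 (SE 0.10, adjusted p = 2.50e-07, edgeR), which held under all 17 alternatives, with 0.64 from second libraries alone and 0.57 without the coronal E16.5 libraries. For Fgfrl1 it was −1.06 (SE 0.23, adjusted p = 0.000317), again called under all 17, with −0.86 from second libraries. For Fgfr3 it was 0.50 (SE 0.19, adjusted p = 0.0496), called under 9 of the 17 alternatives, and 1.04 from second libraries.

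For Fgf9 the coronal contrast was 1.67 (adjusted p = 0.0051, edgeR), but it was 0.34 (adjusted p = 0.669) from second libraries and 0.46 (adjusted p = 0.584) without the coronal E16.5 libraries. The contrast was not called for Fgfr1 (−0.19), Fgf18 (−0.28), Fgf2 (0.22), Fgf7 (0.62) and Fgf10 (−0.23). For Fgfr1 it was −0.41 (adjusted p = 0.00832) without the coronal E16.5 libraries, and for Fgf7 it was 1.57 (adjusted p = 0.0304) with the replicate number as a block.

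The level of Fgfr2 itself depended on which coronal libraries were read. Coronal first libraries had group means of 62.5 RPKM or more. In the frontal, lambdoid and sagittal sutures the SM groups had means of 22.9 to 40.3 and the front groups of 40.6 to 62.8. Second coronal libraries of the E16.5 pieces held 35.7, 38.2 and 47.2 RPKM in FR, 39.9, 40.9 and 48.1 in SM and 40.3, 40.3 and 50.7 in PA. These lay below every first library of the same groups, with SM again overlapping both fronts. Those of the E18.5 pieces held 44.3, 48.8 and 54.0 RPKM in FR. SM held 35.6, 37.9 and 46.0 and PA 48.4, 50.4 and 56.2, so that SM lay below PA and overlapped FR.

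Each region of each suture was also compared between E16.5 and E18.5. Of 90 tests of a member in a region, 3 called E18.5 higher and 3 called it lower, against 8.57% of all tests over all genes. Of the 6 calls, 5 were in the coronal suture, where 24.4% (FR), 20.6% (PA) and 27.1% (SM) of all genes were called. When the coronal E16.5 libraries were left out of the fit, 4 calls were made in the other sutures in place of 1. The added ones were Fgf2 (0.49, adjusted p = 0.0332) and Fgf7 (−1.70, adjusted p = 0.0376) in the frontal FR front and Fgfr2 in lambdoid SM (−0.39, adjusted p = 0.0289). The ages came from different litters, so litter and age cannot be told apart.

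Fgfr3 rose with age in coronal SM. First libraries held 0.211, 0.442, 0.730, 0.854 and 0.917 RPKM at E16.5, against 0.919, 1.6, 1.77, 1.86 and 2.27 at E18.5, a difference of 1.41 (SE 0.25, adjusted p = 2.89e-05, edgeR, n = 5 and 5) with no overlap. Second libraries of these pieces held 1.95, 2.13 and 3.09 RPKM at the earlier age, 2.04, 2.13 and 4.17 at the later, and gave 0.22 (adjusted p = 0.701). The first libraries of the same pieces kept the call, at 0.94 (adjusted p = 0.0243). Summed CPM of 10 chondrocyte markers in coronal SM, mostly Acan, ran from 63.8 to 133 at E16.5 and from 244 to 345 at E18.5, without overlap. Col2a1, the main cartilage collagen, had a median of 0.267 and then 1.24 CPM and was at 0 in 1 of the 10 libraries, and the cartilage matrix gene Matn1 was at 0 counts in all 10. The summed level of macrophage markers in these libraries, 47.3 to 94.4 and then 198.5 to 315 CPM, and of dura mater markers, 66.6 to 122 and then 157 to 223, did not overlap between the ages either. The part of these cell types in the difference was not tested.

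Fgf9 rose in the coronal FR front, from 0, 0.0108, 0.0124, 0.0881 and 0.101 RPKM to 0.327, 0.371, 0.472, 0.941 and 1.73 (difference 4.12, adjusted p = 3.00e-05, edgeR). Second libraries held 0.0180, 0.0656 and 0.310 at the earlier age, 0.161, 0.700 and 0.765 at the later, and gave 1.98 (adjusted p = 0.0658). In the same FR libraries the summed CPM of ectocranial mesenchyme markers was 731 to 850 at the earlier age and 1488 to 1916 at the later. That of pericyte and smooth muscle markers was 53.9 to 225 and then 477 to 1195, and that of macrophage markers 36.5 to 83.9 and then 118 to 192. Their part in the change of Fgf9 was not tested. Fgf18 rose in the coronal PA front, from a highest library of 2.74 RPKM at E16.5 to 1.56, 2.71, 4.79, 5.24 and 5.40 (difference 1.63, adjusted p = 0.0172), and second libraries gave 0.06 (adjusted p = 0.968). Without replicate 1, 4 or 5 the change of Fgf18 was not called. In these PA libraries the summed CPM of pericyte and smooth muscle markers was 36.8 to 120 and then 248 to 368, that of dura mater markers 62.8 to 111 and then 160 to 199, and that of chondrocyte markers 146 to 203 and then 262 to 434. The largest part of the chondrocyte sum was Col11a2, at a median of 163 and then 208 CPM. Acan was at 17.5 and then 63.1, Hapln1 at 42.9 and then 38.6, and Col2a1 at 0.523 and then 1.36. Matn1 was at 0 in all 5 PA libraries at E18.5. The part of these cell types in the change of Fgf18 was not tested.

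The falls were small. Fgf2 fell in coronal SM by 0.55 (adjusted p = 0.0218, edgeR), where second libraries held 7.37, 8.28 and 8.48 RPKM at the earlier age, 7.75, 7.91 and 10.9 at the later, and gave the opposite sign, at 0.14 (adjusted p = 0.8). Fgf2 also fell in the sagittal PA front, from 3.69, 5.20, 5.24, 5.40 and 5.45 RPKM to 2.32, 2.70, 2.92, 3.10 and 4.08, by 0.72 (adjusted p = 0.0253), where 1.6% of all genes were called. Leaving out replicate 2, 3, 4 or 5 ended that call. Summed CPM in these front libraries also stood apart between the ages for osteoblast markers (25267 to 36082, then 44444 to 60058) and endothelial markers (45.6 to 108, then 182 to 301), which were higher at E18.5, as were chondrocyte markers. Proliferation markers (2555 to 2972, then 1724 to 2284) and ectocranial mesenchyme markers (1785 to 2491, then 1331 to 1729) were lower. Their part in the fall of Fgf2 was not tested. Fgfr1 fell in coronal SM by 0.38 (adjusted p = 0.0346), a call made under 8 of 16 alternatives, with −0.29 (adjusted p = 0.209) from second libraries. Scaling by totals raised all coronal age differences by 0.27 (PA) to 0.47 (FR) on the log2 scale and ended the coronal calls of Fgf2 (−0.11) and Fgfr1 (−0.07).

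**Figure D4:**
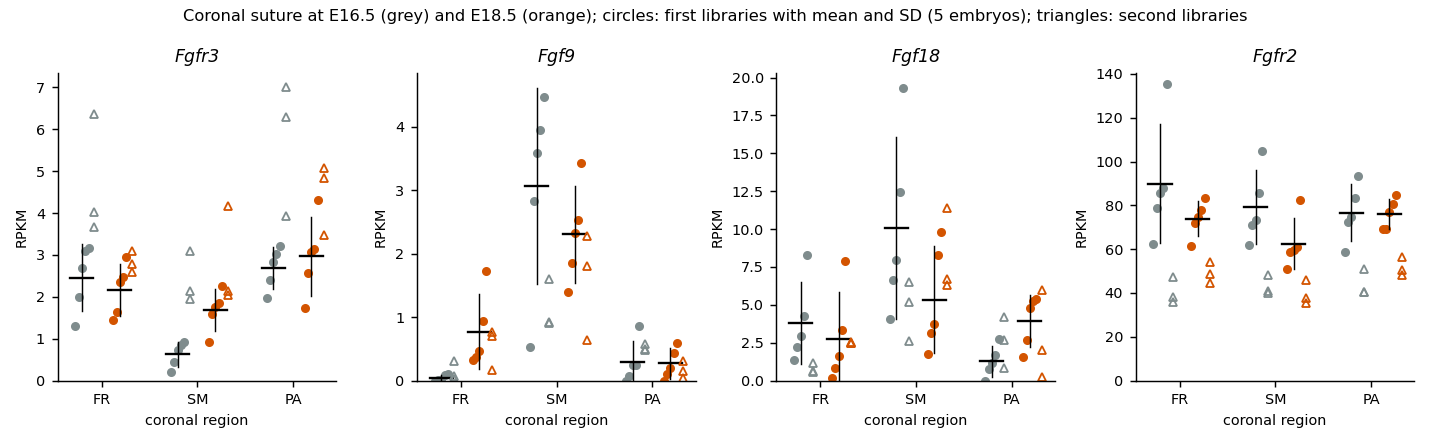
RPKM (vertical axes, linear) of Fgfr3, Fgf9, Fgf18 and Fgfr2 in the coronal FR front, SM and PA front at E16.5 (grey) and E18.5 (orange), with circles for first libraries, bars and lines for their mean and SD (n = 5), and triangles for second libraries. The circles of Fgfr3 in SM and of Fgf9 in FR stand apart between the ages, the triangles of Fgfr3 in SM overlap, and the triangles of Fgfr2 lie below the circles.

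The SM to OF difference itself changed with age in 4 of 54 tests, against 2.48% over all genes, and all 4 were coronal, where 7.67% (FR) and 7.06% (PA) of genes were called. For Fgfr3 the change was 1.59 in the FR comparison (adjusted p = 0.00336, edgeR) and 1.27 in the PA comparison (adjusted p = 0.0220), that is, the front excess narrowed. Second libraries gave 0.96 (adjusted p = 0.169) and 0.60 (adjusted p = 0.455), and the first libraries of the same pieces gave 1.19 (adjusted p = 0.0527) and 0.85 (adjusted p = 0.226). Both calls were lost without replicate 5, and that of the PA comparison also without replicate 1. For Fgf18 the change in the PA comparison was −2.54 (adjusted p = 0.0168), and 0.72 (adjusted p = 0.655), with the opposite sign, from second libraries. It was lost without replicate 4 or 5. For Fgf9 the change in the FR comparison was −4.54 (adjusted p = 0.00155), and −1.50 (adjusted p = 0.424) from second libraries.

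Fronts of one suture were compared in the coronal and lambdoid sutures. Of 36 tests, 4 were called, all in the coronal suture in this fit, against 5.09% over all genes and comparisons, and 14.4% (E16.5) and 5.44% (E18.5) in the coronal suture. At E16.5 the FR front exceeded the PA front in Fgf18 by 1.57 (adjusted p = 0.0283, edgeR) and in Fgf2 by 0.64 (adjusted p = 0.0133), and Fgf9 was lower in FR, at −2.70 (adjusted p = 0.00934). From second libraries these were −1.74, 0.25 and −1.91, none of them called. With the replicate number as a block Fgf9 was at −2.60 (adjusted p = 0.0528). At E18.5 Fgf10 was higher in FR by 2.14 (adjusted p = 0.0194), with the 5 FR libraries above the 5 PA libraries, and second libraries gave 1.16 (adjusted p = 0.306). The call was also lost without replicate 1, 3 or 4. In these FR and PA libraries the summed CPM of pericyte and smooth muscle markers was 477 to 1195 against 248 to 368, and that of endothelial markers 133 to 420 against 43.4 to 78.2, and their part in the difference was not tested.

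The other genes of the pathway were taken from lists. Of a list of 14 other FGF ligands and receptor genes, 2 passed the filter: Fgf1, which can bind all FGF receptors, was at −1.12 in the mean of the 12 differences (adjusted p = 0.00135, edgeR), and Fgfr4 was at −0.29 and not called. All 4 intracellular FGF homologous factors, which are not secreted and do not signal through the receptors, were called higher in SM, with Fgf14 at 1.92. Of 24 co-receptors and heparan sulfate genes, 22 were tested, 9 were called higher in SM and 7 lower, with a median of 0.016 (all genes tested had 28.6% higher and 27.9% lower). The sulfatases Sulf1 and Sulf2, which trim sulfate from heparan sulfate, were at 1.41 and 1.10, the adhesion protein Flrt2 at 0.85 and the heparan sulfate polymerase Ext1 at 0.41. The glypicans Gpc1 and Gpc4, heparan sulfate proteins of the cell surface, were at −1.05 and −0.64. Kl and Klb, co-receptors of the hormone-like FGFs, did not pass the filter.

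Of 11 receptor adaptors, 4 were called higher and 4 lower in SM. Frs2, the docking protein of FGF receptors, was lower in SM in all 12 comparisons with a mean of −0.59, and Gab1 and Shc1 were at 0.39 and 0.36. Of 13 targets and feedback genes of ERK signaling, 5 were called higher and 2 lower. Il17rd, a membrane inhibitor of FGF signaling, was at 0.93 and was called higher in 9 comparisons and lower in 1. Etv5, a transcription factor induced by FGF, was at −0.95 and was called lower in 8, and the feedback inhibitor Spry2 was at −0.51 (adjusted p = 3.01e-05, edgeR). The others of this list called higher in the mean were Spred3 at 0.89, Etv1 at 0.62, Spry1 at 0.38 and Spred1 at 0.30.

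The genes whose group means followed a member most closely were found by Pearson's r over the 20 group means of log2 CPM. The search ran among 9206 genes for the receptors and Fgfrl1 and 9207 for Fgf18. The groups share sutures and litters, so these are descriptions. For Fgfr2 they were Bcl2 (r = 0.97), Znrf3 (0.95) and C1galt1 (0.95), and for Fgfr3 Unc5b (0.95), Tmco1 (0.94) and Scfd2 (0.93). For Fgfr1 they were Mef2d (0.86), Scarb1 (0.80) and Plxnb1 (0.80). For Fgfrl1 they were Cacnb1 (0.92), Loxl3 (0.92) and Col14a1 (0.89), and for Fgf18 Garnl3, Gm42819 and Mylip (0.93 to 0.94).

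Libraries of complete E18.5 sutures, 4 per suture, are labelled as normalization controls, and their titles do not list the tissue they held. They carry no separate replicate numbers, and whether the 4 of a suture are separate pieces is not stated, so they are given as values. Fgfr1 and Fgfr2 were highest in the coronal suture, at 27.5 to 29.9 and 34.8 to 40.5 RPKM, above 15.2 to 21.7 and 23.2 to 32.7 in the other sutures. Fgfr3 was highest in the lambdoid suture (7.89 to 12.4), then in the coronal (4.50 to 6.31), with the frontal and sagittal sutures at 1.91 to 2.92. Fgfrl1 was highest in the lambdoid suture (9.78 to 12.1). Fgf18 was highest in the frontal (10.9 to 17.7) and sagittal sutures (8.91 to 13.1), which overlapped, and lower in the lambdoid (3.78 to 5.93) and coronal sutures (2.85 to 5.44), which also overlapped. Fgf7 reached 4.37 to 11.4 in the frontal suture, and Fgf10 was at 0.955 to 1.11 in the sagittal and 0.148 to 0.341 in the lambdoid suture.

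Single coronal cells placed the members in different cell classes. After filtering, 466 of 1530 and 337 of 1482 barcodes were left at E16.5, with a median of 2501 and 2121 unique molecular identifiers (UMIs) per cell. At E18.5, 2412 of 2628 and 1577 of 1999 were left, with medians of 18476 and 7131. The E16.5 levels thus rest on a small part of the barcodes, and the study itself kept more cells at that age. The libraries of one age shared 1 barcode (E16.5) and 5 barcodes (E18.5), and those of different ages 0. Depth and capture chemistry differed between the ages and cannot be told apart from age. Clusters were named from markers other than FGF genes, and FGF genes took no part in the clustering. Levels are CPM of the UMIs summed over a cluster with exact Poisson 95% intervals, which cover counting error only. The E18.5 libraries held 53691916 (replicate 1) and 13749585 (replicate 2) UMIs, so sums over both rest largely on replicate 1. The libraries can differ by more than these intervals, as they did for Fgf18 at that age. Macrophage-like cells are given as the background of free RNA. With 2 libraries per age no test was made.

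At E18.5 Fgfr1, Fgfr2 and Fgfr3 were each highest in a different class, and Fgfrl1 in the same class as Fgfr3. Fgfr1 was highest in osteoblast-like cells, at 257 CPM (245 to 269), with 221 and 288 in the 2 libraries and 31.4 in macrophage-like cells. Fgfr2 was highest in an unnamed cluster of 663 cells led by Gpx3, Cp, Lum and Mmp13, at 135 (128 to 143). The leading genes of this cluster also held Podnl1, the osteoblast marker Alpl, Postn and Npnt. Fgfr2 was at 44.2 in osteoblast-like, 29.8 in ectocranial mesenchyme-like and 13.6 in macrophage-like cells. A cluster led by Tppp3, Dpt and Tnn, with Hhip among its leading genes, held Fgfr2 at 120. Fgfr3 was highest in chondrocyte-like cells, at 155 (140 to 172), against 33.1 in the Gpx3 cluster, 17.6 in osteoblast-like and 4.76 in macrophage-like cells. Fgfrl1 was also highest in chondrocyte-like cells, at 72.4 (62 to 84.1), with 25.2 in ectocranial mesenchyme-like and 7.58 in osteoblast-like cells.

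Each ligand was highest outside the osteoblast-like class at E18.5. Fgf18 reached 85.9 CPM (79.9 to 92.1) in ectocranial mesenchyme-like cells, where 65.4% of cells had a UMI, and 1 UMI, or 0.152 CPM, in all osteoblast-like cells, with 1.26 in macrophage-like cells. The 2 libraries differed, at 89.7 and 34.8. Fgf9 was highest in the same class, at 24.1 (21 to 27.5), with 23.4 and 33.2 in the libraries and 1.26 in macrophage-like cells. Fgf2 was at 19.2 (16.6 to 22.2) in an unnamed cluster led by Nppc and Col14a1 and at 16.6 in ectocranial mesenchyme-like cells, against 2.12 in osteoblast-like and 2.24 in macrophage-like cells. Fgf7 was highest in the Gpx3 cluster, which had Alpl among its leading genes, at 11.2 (9.18 to 13.5). Fgf10 was highest in the Tppp3 cluster at 5.33 (3.64 to 7.52), from 32 UMIs. Macrophage-like cells held Fgf7 at 0.420 and 0 UMIs of Fgf10.

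**Figure D5:**
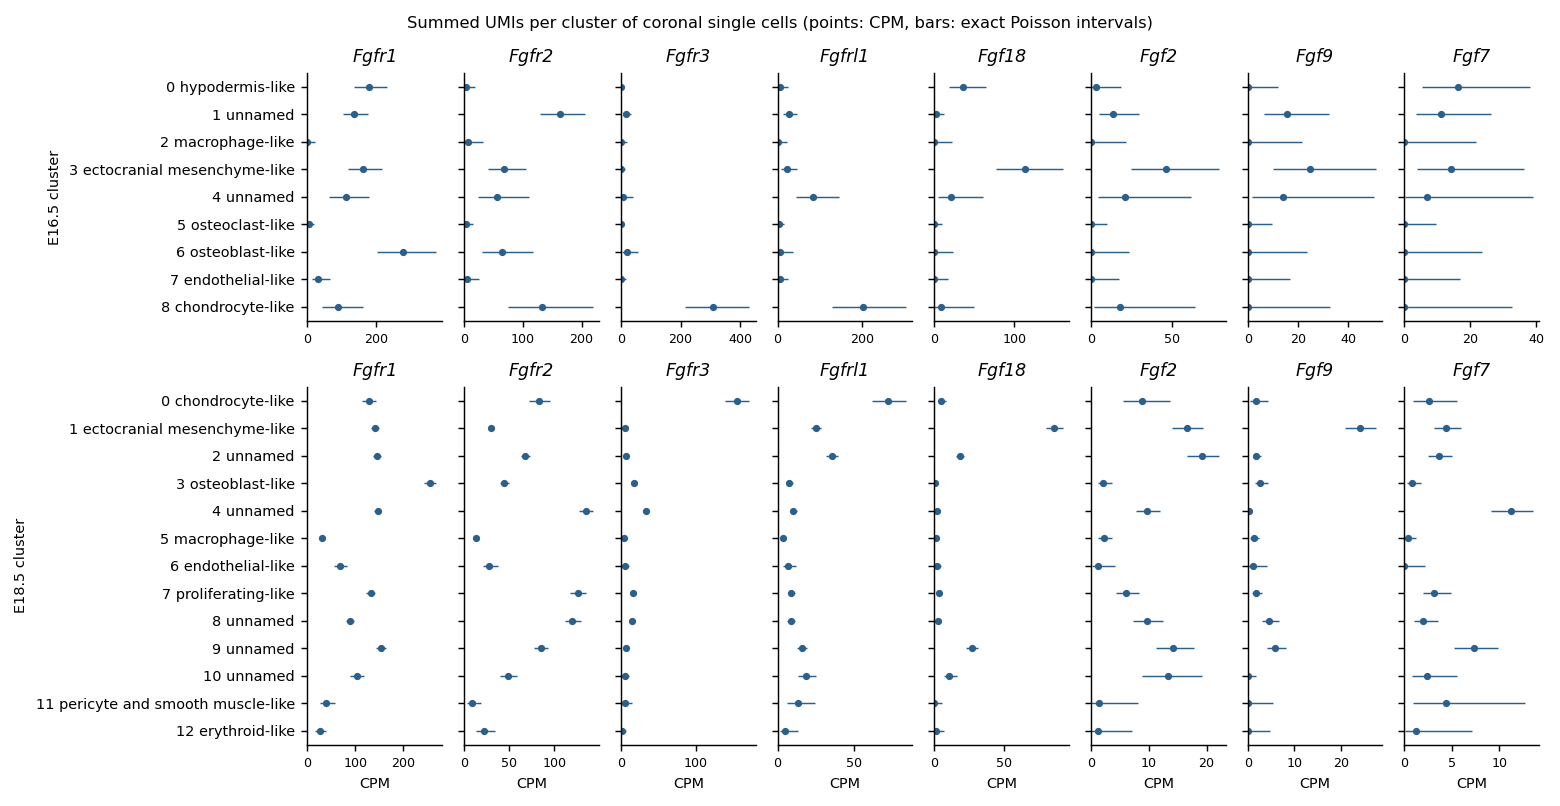
CPM (horizontal axes, linear) of 8 members in each cluster of coronal cells at E16.5 (upper panels) and E18.5 (lower panels), with exact Poisson 95% intervals as bars. Fgf10, with the fewest UMIs, is not drawn. Fgfr3 and Fgfrl1 were highest in chondrocyte-like cells and Fgf18 in ectocranial mesenchyme-like cells at both ages. Fgf9 was highest in ectocranial mesenchyme-like cells at E18.5, and its counts at E16.5 were too few for an order.

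At E16.5 the leading classes were the same for Fgfr1, Fgfr3, Fgfrl1 and Fgf18. Fgfr1 was at 280 CPM (203 to 376) in osteoblast-like cells and at 0 UMIs in macrophage-like cells. Fgfr2 was at 164 (128 to 206) in an unnamed cluster of 160 cells led by Tnn, Tnc, Npnt and Runx2, with 173 and 155 in the 2 libraries, and at 3.26 in hypodermis-like and 5.90 in macrophage-like cells. Fgfr3 was at 309 (216 to 430) in 50 chondrocyte-like cells, with 19.1 or less elsewhere. Fgfrl1 was at 203 (129 to 305) in the same cells. Fgf18 was at 113 (77.6 to 160) in ectocranial mesenchyme-like cells, with 118 and 88.9 in the libraries, and Fgf2 at 46.1 (24.5 to 78.8). Fgf9 rested on 7 UMIs in that class, at 24.8 (9.98 to 51.1), and Fgf7 and Fgf10 on 15 and 7 UMIs in all cells. For these 3 ligands the counts were too few for an order of classes.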

How the data were processed

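Read pairs had been trimmed with cutadapt, aligned by the authors to mm10 with STAR 2.5.3a and counted on GENCODE genes with featureCounts 1.6.4 without regard to strand, and the deposited values are raw counts per gene. The deposited single-cell matrices hold counts of UMIs per barcode, as filtered by Cell Ranger. A deposited table of the authors' own ratios between groups was not used. A gene was tested if it reached 1 CPM in more than 10% of the 100 first libraries. Counts were scaled by TMM and fitted to all 20 groups at once with the quasi-likelihood test of edgeR 4.0.16 (R 4.3.3). The groups were those of the labels, and each test was two-sided, with p-values adjusted by Benjamini-Hochberg over 19768 genes in each comparison. The study used voom, which served as an alternative beside DESeq2 1.42.0, other scalings, filters, library sets and left-out replicates. The fit was tested on simulated data, with changes set in coronal SM at E18.5 in genes above a minimum level. Of 4-fold changes 96% were called, against the FR front and against E16.5 alike. Of 2-fold changes 60% were called against the FR front and 54% against E16.5, so a missing call does not show a lack of change. The mean levels of Fgf9 and Fgf7 lay under that minimum, and the simulated spread of a gene was the same in all groups. These shares therefore do not carry over to such low ligands or to the less alike coronal E16.5 libraries. Within a suture and age, SM and OF libraries with the same replicate number carry the same litter label. Whether they came from one embryo is not stated, so p-values measure the spread between pieces. That spread was estimated per gene over all 20 groups together, not from the compared groups alone. For the coronal E16.5 groups, whose libraries were less alike than most, a p-value therefore leans on the spread of the other groups. The median residual correlation of 60 such pairs was 0.0437, and pairs with unlike numbers had −0.0114. For SM against OF, the replicate number as a block was an alternative.

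Single cells with at least 800 genes and within 3 median absolute deviations were clustered per age with scanpy 1.11.5 (2000 variable genes, 13 components, 100 neighbours, Leiden resolution 0.8), without a doublet caller. The E18.5 matrices carry an E16 code in their names, and the labels were followed. Members and gene lists were chosen with earlier results of these data known. Genes of the other lists were named when called in at least 6 of the 12 comparisons in 1 direction, at most 6 per list. Fgf1, Fgfr4, Spry2, Spred3, Etv1, Spry1 and Spred1 were named after their values were seen. Second libraries (18) and complete sutures (16) were given as values, the former also as alternatives. Ages differ in litter, so no block was fitted there.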

Additional observations from a re-analysis of the deposited data

Results flagged for a closer look

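In 216 groups of 4 or 5 libraries, 10 held a library far from the others by Dixon's criterion on log2 CPM (log2 RPKM for complete sutures), where chance gives 10.8 (1 in 20). In RPKM, Fgf9 was at 0.527 in replicate 3 of coronal SM at E16.5, against 2.82 to 4.46 in the others. Fgfrl1 was at 0.526 in replicate 1 of the same group (others 2.55 to 4.06) and at 1.40 in replicate 5 of frontal FR at E18.5 (others 4.67 to 5.96). Fgf18 was at 0 in replicate 5 of coronal PA at E16.5 (others 0.776 to 2.74). Fgf2 was at 3.69 in replicate 2 of sagittal PA at E16.5 (others 5.20 to 5.45), Fgfr1 at 18.7 in replicate 3 of sagittal SM at E16.5 (others lower, from 15.8 up), and Fgfr2 at 54.8 in replicate 1 of frontal FR at E18.5 (others 57.1 to 57.9). Fgf10 was at 0.118 in replicate 3 of lambdoid SM at E16.5 (others 0.378 to 0.5). Among complete sagittal sutures, the library labelled control_C held Fgf18 at 8.91 and Fgfrl1 at 9.36.

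The SM to OF difference of the coronal suture differed from that of the other sutures, by edgeR's quasi-likelihood test of the contrast, for Fgfr2 (0.66), Fgfr3 (0.50), Fgfrl1 (−1.06) and Fgf9 (1.67). The test of its change between the ages was passed in the coronal suture by Fgfr3 (1.59 for FR and 1.27 for PA), Fgf18 (−2.54 for PA) and Fgf9 (−4.54 for FR). Of these 8 values, the 4 changes with age and the value of Fgf9 between sutures were not called from the second coronal libraries.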

How the results depend on the processing

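Of the 41 higher and 22 lower calls of SM against OF, other tools, scalings, filters and library sets gave 37 to 45 higher and 17 to 23 lower, and leaving out 1 replicate number gave 30 to 38 and 18 to 21. Counts that moved by over 1.5 times were those of the coronal contrast, of age, of change with age and of fronts. These 3 settings were chosen after seeing the data: second coronal libraries alone, first libraries of the same 18 pieces, and all libraries but the coronal E16.5 ones. From second coronal libraries alone, 1 member was higher at E18.5, 0 higher and 0 lower changes of SM against OF with age were called, and fronts differed in 0 and 0. With second libraries in place of the first, 1 was higher and 1 lower at E18.5, 0 changes with age were higher, and 1 front difference was higher and 0 lower. Second libraries summed with the first gave 1 and 1 changes with age, and the first libraries of the same 18 pieces 0 and 1. Leaving out the coronal E16.5 libraries removes every coronal test of age and of change with age (63 of 90 and 36 of 54 tests remain) and one front comparison (27 of 36 remain). The remaining tests gave 1 higher and 3 lower age calls, where they held 0 and 1 with all libraries fitted, 0 and 0 changes with age, and 5 and 0 front differences (1 of them lambdoid, Fgf2 at 0.56), and 2 members were lower in the coronal contrast. Voom gave 5 higher at E18.5 and 0 lower front differences, no low-count filter gave 1 lower at E18.5, totals without TMM gave 5 higher front differences, and the fit of each suture and age by itself gave 0 lower changes with age and 0 lower front differences.

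Leaving out 1 replicate number gave 2 to 3 higher and 1 to 3 lower age calls, 0 to 2 higher and 1 to 2 lower changes with age, and 1 to 3 higher and 0 to 1 lower front differences. Called values that changed sign were Fgf18 between coronal fronts at E16.5 (−1.74 from second libraries alone and −0.057 with them in place of the first), the change of Fgf18 with age in coronal PA (0.72 from second libraries alone) and Fgf2 with age in coronal SM (0.14 from second libraries alone). How the second libraries were made is not given in the sources used here, and the cause was not tested.

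With the replicate number as a block, 41 higher and 23 lower SM to OF differences were called, the contrast of coronal with other sutures gave 4 and 1, and fronts differed in 3 and 0. The block changed the calls of 5 values, each given beside its value above, and no other call of a reported value. Bulk levels stayed within the spread of replicates in 18 of 18 checks, and 32 of 36 single-cell levels stayed within their intervals. The exceptions were ectocranial mesenchyme-like cells at E18.5, with Fgf18 at 64.5 and 67.1 CPM and Fgf9 at 17.5 and 17.9 CPM under 30 components and a resolution of 1.2. Counts limit the precision of Fgf10 in the lambdoid fronts, at 0 to 14 per library.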
